A study of Arabidopsis thaliana with 16 samples.

Results

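Lysine 2-hydroxyisobutyrylation (Khib) was examined over 38 Arabidopsis thaliana genes at which the mark was higher in a mutant of the histone deacetylase HDA6 than in the wild type Col-0 while the mutant named sant-null was less than 0.5 above Col-0 on the log2 scale. The genes were chosen by their measured hda6, sant-null and Col-0 values from the 32548 genes of the deposited tables, on 4 conditions. A gene had to be at least 1000 bp long, to have at least 3 RPKM (reads per kilobase of gene, scaled to the library total) in hda6, to have an hda6 ratio of at least 0.75, and to have a sant-null ratio below 0.5. A mutant's ratio is throughout log2 of (RPKM + 1) in that mutant over (RPKM + 1) in Col-0, a scale that understates the fold of low genes. Of 23471 genes of at least 1000 bp (long genes below), 226 met both hda6 conditions, which is 0.963%, and 38 of these met the sant-null condition as well, which is 0.162% of long genes. Because the hda6 and sant-null values chose the genes, these values are given below as a description.

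Khib is an acyl mark on the lysines of histones, and in plants and animals it has been found over genes. HDA6 is a nuclear deacetylase of the RPD3 class, best known in Arabidopsis for the silencing of transposons and ribosomal RNA genes and for flowering time, and HDA9 is a related enzyme of the same class. In mammalian cells, deacetylases of this class have been shown to remove Khib from histones. SANT domains are protein modules found in many chromatin complexes, some of which hold histone deacetylases.

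Whole seedlings of 4 genotypes were used, all untreated and 12 days old: Col-0, the sant-null quadruple mutant, an hda6 line made by EMS mutagenesis and an hda9 line with a T-DNA insertion. Each genotype had 2 Khib ChIP libraries and 2 input libraries, but the tables hold 1 Khib value per gene and genotype. No difference below therefore has a replicate check, and every interval is a 95% interval (conditional exact) that covers counting error only. Steps in the RPKM values gave whole reads for every gene. The depths, in M reads, were 38.77 for hda9, 18.6 for Col-0, 16.75 for hda6 and 12.0 for sant-null. These recovered reads are not on the scale of the authors' island counts. An island inside AT3G09162 has 186 reads in hda6 and 164 in Col-0 in the authors' deposited table. The whole gene had 170 and 102 recovered reads. The cause was not tested, and the intervals rest on the recovered reads. Over the 38 genes the reads ran from 80 to 948 in hda6, 185 to 1023 in hda9, 39 to 492 in sant-null and 43 to 571 in Col-0. Input values were not used here, so that more of the mark and more DNA at a locus cannot be told apart, nor can more marked cells and more mark per cell in whole seedlings.

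On the values as deposited, the 38 genes were not higher in hda6 alone. Their sant-null ratios ran from -0.31 to 0.49 with a median of 0.38, against a median of 0.29 over long genes, of which 71.1% were below 0.5. Only 11 of the 38 lay below that median, and 16 lay at 0.4 or above, just under the limit. The counting interval of the sant-null fold lay above 1 at 21 of the 38 genes and below 1 at 1, against 55.9% and 12.2% of long genes. The hda9 ratio, whose mutant value the rule did not use, was at least 0.75 at 8 of the 38 genes, from 0.5 to 0.75 at 5 and below 0.5 at 25 (below 0 at 4, against 24.4% of long genes), and 32.0% of long genes reached 0.75 while 51.1% were below 0.5. All these ratios share the Col-0 value that the rule used, and the long genes were not held to the sant-null condition. The level of all genes also differed between the libraries: over all genes the medians of the mutants lay above that of Col-0 by 0.33 in hda6, 0.48 in sant-null and 0.66 in hda9 on the log2 scale. With the 4 medians made equal, the hda6 ratios of the 38 genes ran from 0.45 to 0.75 with a median of 0.52. Their sant-null ratios then had a median of -0.03, reached at most 0.13 and were below 0 at 24. Their hda9 ratios had a median of -0.11, reached at most 0.87 and were below 0 at 27. On that scale 2 genes met the rule, AT4G23493 and TRXF1, so that the directions in sant-null and hda9 given below hold for the values as deposited. Because the reading depends on the scaling, the genes are called here the 38 genes, those that met all 4 conditions as deposited. The name genes of hda6 only is not used.

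**Figure D1:**
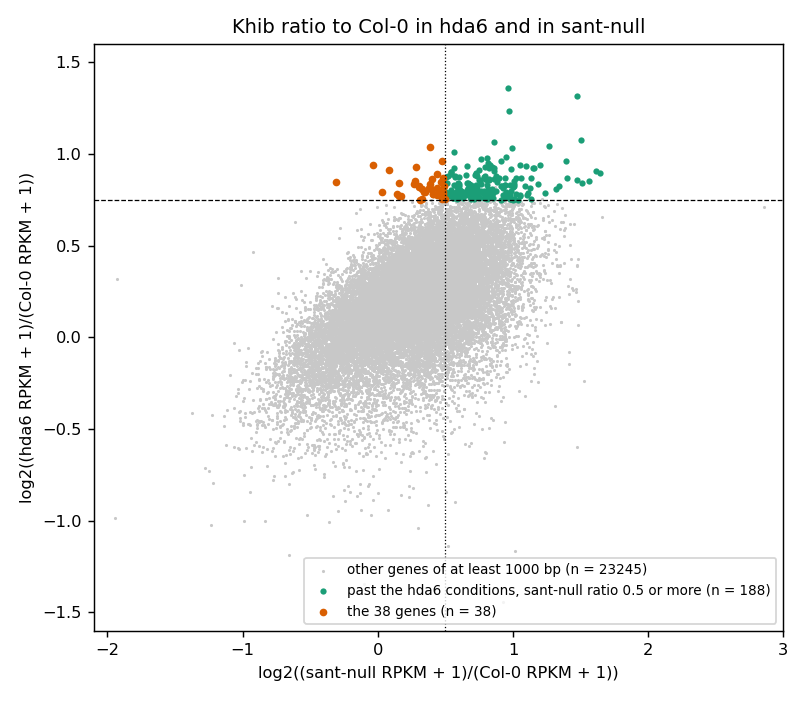
Log2 ratio of Khib in hda6 to Col-0 (vertical) against that in sant-null to Col-0 (horizontal), 1 point per gene of at least 1000 bp, with the limits of 0.75 (dashed) and 0.5 (dotted). The 38 genes (orange) sit at the left end of the 226 genes past the hda6 conditions, most of them close to the dotted line, and the 188 others (green) lie to its right.

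Among genes for secreted signals, EPF2 and CLE16 were found. EPF2 (AT1G34245, chromosome 1, 12472868 to 12473974, TAIR10), which encodes a peptide that limits entry into the stomatal lineage, had 11.6 RPKM in hda6, 7.29 in hda9, 8.66 in sant-null and 5.93 in Col-0. Its hda6 level was 1.97 times that of Col-0 with an interval of 1.57 to 2.48. CLE16 (AT2G01505, chromosome 2, 228577 to 229899), a member of the CLAVATA3/ESR-related peptide family, had 5.01 RPKM in hda6, 5.38 in hda9, 3.46 in sant-null and 2.56 in Col-0. EPF2 was thus highest in hda6, whereas at CLE16 the fold of hda6 to hda9, 0.931, had an interval of 0.740 to 1.16 that held 1. CLE16 is overlapped by the gene AT2G01510, and reads of the overlap cannot be assigned to either.

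Among genes with a symbol, WRKY64, GBF6 and BZIP60 encode transcription factors. BZIP60 (AT1G42990, chromosome 1, 16135723 to 16137463) encodes a factor of the unfolded protein response whose mRNA is spliced upon stress of the endoplasmic reticulum, and it had 16.3 RPKM in hda6, 10.7 in hda9, 12.9 in sant-null and 9.05 in Col-0. Its fold of hda6 to sant-null was 1.26 with an interval of 1.08 to 1.47, among the smallest of the 38. GBF6 (AT4G34590, also bZIP11, chromosome 4, 16521861 to 16523230), a factor whose translation is repressed by sucrose, had 9.33 RPKM in hda6, 6.66 in hda9, 5.96 in sant-null and 4.79 in Col-0. WRKY64 (AT1G66560, chromosome 1, 24833518 to 24834801) had 7.16 RPKM in hda6, 6.23 in hda9, 4.09 in sant-null and 3.56 in Col-0. At WRKY64 the interval of the fold of hda6 to hda9, 0.942 to 1.40, held 1, while at GBF6 and BZIP60 it lay above 1.

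HIPP21, CCH and ATHM2 encode metal binding or redox proteins. HIPP21 (AT5G17450, chromosome 5, 5755222 to 5757003), which encodes a heavy metal associated isoprenylated protein, had 9.15 RPKM in hda6, 4.76 in hda9, 4.16 in sant-null and 4.28 in Col-0. Its folds of hda6 were 2.13 to Col-0 (1.74 to 2.63), 2.198 to sant-null (1.72 to 2.82) and 1.92 to hda9 (1.63 to 2.26). On the values as deposited, hda6 thus stood apart from 3 genotypes that were close to each other. With the 4 medians made equal, the ratios of HIPP21 were 0.65 in hda6, -0.41 in sant-null and -0.40 in hda9. The gene AT5G02735 overlaps HIPP21, so that part of its reads is shared. CCH (AT3G56240, chromosome 3, 20863139 to 20864727), a copper chaperone gene, had 8.53 RPKM in hda6, 4.79 in hda9, 5.98 in sant-null and 4.33 in Col-0. ATHM2 (AT4G03520, chromosome 4, 1562203 to 1564204), which encodes the m-type chloroplast thioredoxin TRXm2, had 9.54 RPKM in hda6, 6.71 in hda9, 5.74 in sant-null and 4.54 in Col-0, a fold of hda6 to Col-0 of 2.10 (1.74 to 2.55). Both were highest in hda6 by intervals above 1 against each other genotype.

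Among genes with a symbol, SDH6 and TIM9 encode mitochondrial proteins. SDH6 (AT1G08480, chromosome 1, 2684176 to 2685702), which encodes a subunit of succinate dehydrogenase (complex II), had 13.4 RPKM in hda6, 9.17 in hda9, 10.4 in sant-null and 7.15 in Col-0. TIM9 (AT3G46560, chromosome 3, 17138476 to 17139582), which encodes a small chaperone of protein import into the inner membrane, had 9.38 RPKM in hda6, 5.80 in hda9, 6.62 in sant-null and 5.002 in Col-0. The order hda6, sant-null, hda9, Col-0 held at both, and SDH6, with a sant-null ratio of 0.49, lay just inside the sant-null limit. The gene AT1G08490 overlaps SDH6, so that part of its reads is shared.

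Other genes with a name covered unrelated functions. GRF3 (AT5G38480, chromosome 5, 15409684 to 15411601), which encodes the 14-3-3 protein psi, a phosphoprotein-binding regulator, had 7.91 RPKM in hda6, 5.80 in hda9, 3.997 in sant-null and 3.73 in Col-0, and its fold of hda6 to sant-null was 1.98 (1.55 to 2.54). PP2-B15 (AT1G09155), a gene of the phloem protein 2 lectin family, had 13.96 RPKM in hda6, 10.3 in hda9, 9.86 in sant-null and 7.23 in Col-0. EDA6 (AT3G23440), named for a mutant with arrested embryo sacs, had 19.3 RPKM in hda6, 8.55 in hda9, 11.0 in sant-null and 10.7 in Col-0. At EDA6 hda9 lay below Col-0, with a fold of 0.797 and an interval of 0.678 to 0.938. AT5G50760, listed as SAUR55 of the small auxin upregulated RNA family, had 9.15 RPKM in hda6, 7.10 in hda9, 6.46 in sant-null and 4.85 in Col-0. AT5G02060, listed as CASPL5B1 of the CASP-like membrane proteins, had 6.56 RPKM in hda6, 6.42 in hda9, 4.27 in sant-null and 3.26 in Col-0. The fold of hda6 to hda9 there was 1.02 (0.845 to 1.23). The genes AT5G02065 and AT5G02070 overlap AT5G02060, so that part of its reads is shared.

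Of the 38 genes, 25 have no symbol in the reference used for names, SAUR55 and CASPL5B1 among them. AT4G23493 (chromosome 4, 12256050 to 12257079) had the highest hda6 ratio of all 38, 1.04, with 7.07 RPKM in hda6, 4.63 in hda9, 4.13 in sant-null and 2.92 in Col-0. This rests on 56 and 122 reads in Col-0 and hda6, and the fold of 2.42 has an interval of 1.75 to 3.38. AT2G36930 followed with an hda6 ratio of 0.96, from 5.47 RPKM in Col-0 and 11.6 in hda6. The highest levels were at AT1G56530 and AT4G03965. AT1G56530 (chromosome 1, 21179237 to 21180888) had 34.3 RPKM in hda6, 9.70 in hda9, 14.8 in sant-null and 18.6 in Col-0, and AT4G03965 had 26.6, 14.2, 17.2 and 15.2 in the same order. AT1G56530 was the gene at which sant-null (fold 0.798, 0.691 to 0.920) and hda9 (fold 0.522, 0.465 to 0.586) both lay below Col-0 while hda6 lay above it (fold 1.84, 1.66 to 2.05).

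**Figure D2:**
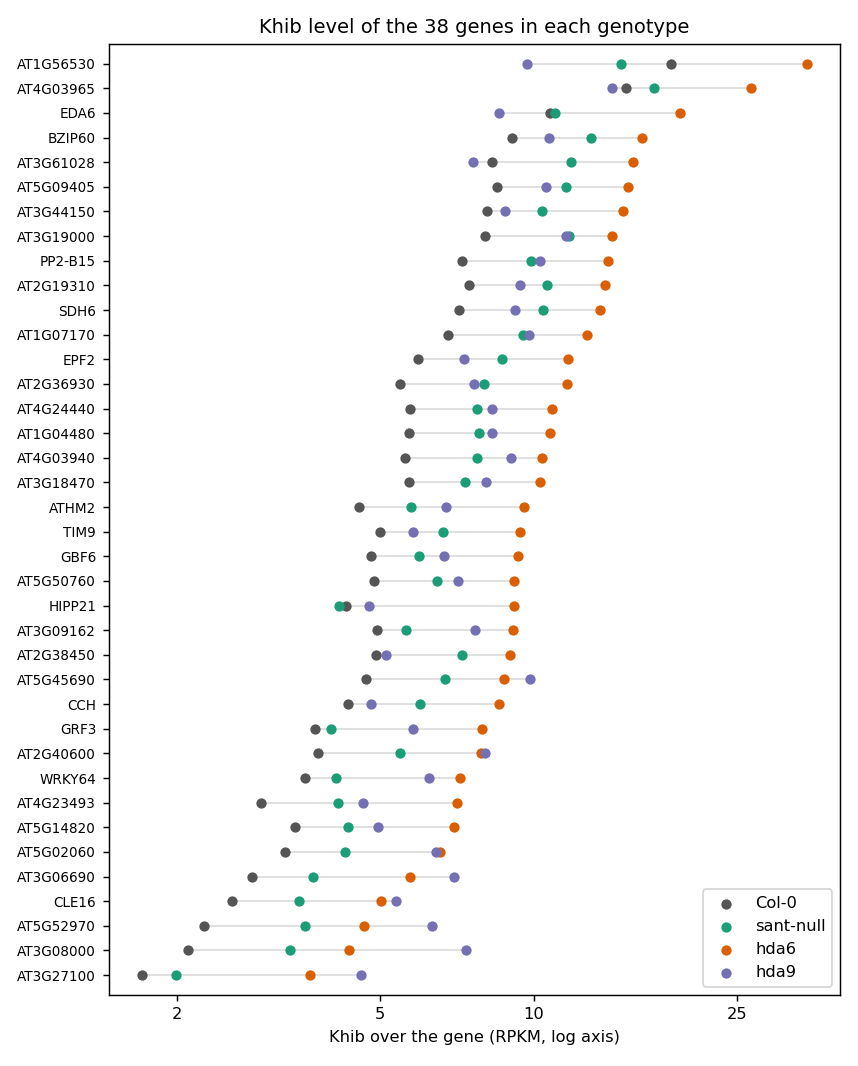
Khib level (RPKM, log axis) of each of the 38 genes in the 4 genotypes, 1 point per genotype, ordered by the hda6 level, the grey line joining the lowest and the highest value. Hda6 is the highest point in 31 genes, and hda9 is in the 7 others, all but AT5G45690 and AT2G40600 at the lower end of the plot.

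The order of the genotypes varied among the 38 genes. Levels in hda6 ran from 3.65 to 34.3 RPKM with a median of 9.46, and in Col-0 from 1.71 to 18.6 with a median of 4.96, close to the median of 5.69 over long genes. Hda6 was the highest of the 4 genotypes at 31 genes (24.1% of long genes), an order that the rule favours. At 7 genes hda9 was higher than hda6: AT2G40600, AT3G06690, AT5G52970, AT3G08000, AT3G27100, AT5G45690 and CLE16. Hda9 was the highest at 54.9% of long genes. These 7 had at most 4.69 RPKM in Col-0. Col-0 was the lowest at 33 genes (60.3% of long genes), an order that the rule also favours. Hda9 was the lowest at 4 (AT1G56530, AT3G61028, EDA6 and AT4G03965, against 20.2% of long genes) and sant-null at 1, HIPP21 (8.67%).

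Hda6 was also set directly against each other genotype, without the pseudocount. The rule itself puts hda6 above Col-0 and sant-null, so the counts against both follow largely from the choice of genes. The folds to hda9 also use the hda6 value that chose the genes. The fold of hda6 to Col-0 ran from 1.75 to 2.42 with a median of 1.89, and its interval lay above 1 at all 38 genes, as it did at 50.2% of long genes (below 1 at 5.7%). To sant-null the fold ran from 1.21 to 2.31 with a median of 1.42, and the interval lay above 1 at 35 genes (20.0% of long genes), below 1 at 0 (29.2%) and held 1 at AT5G52970, AT3G08000 and AT2G38450. The largest of these folds were at AT1G56530 (2.31, 2.02 to 2.64), HIPP21 and GRF3. To hda9 the fold ran from 0.590 to 3.53 with a median of 1.38. Its interval lay above 1 at 28 genes (27.2% of long genes), held 1 at 8 and lay below 1 at 2 (52.2% of long genes), AT3G08000 and AT5G52970. On the log2 scale with the pseudocount the median of hda6 over hda9 was 0.41 in the 38 genes and -0.20 over long genes. It was 0.04 in the 188 genes past the hda6 conditions with a sant-null ratio of 0.5 or more. The 38 and the 188 were divided by the sant-null ratio, and their median hda9 ratios were 0.46 and 0.78. Nothing is read from the gap between them.

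**Figure D3:**
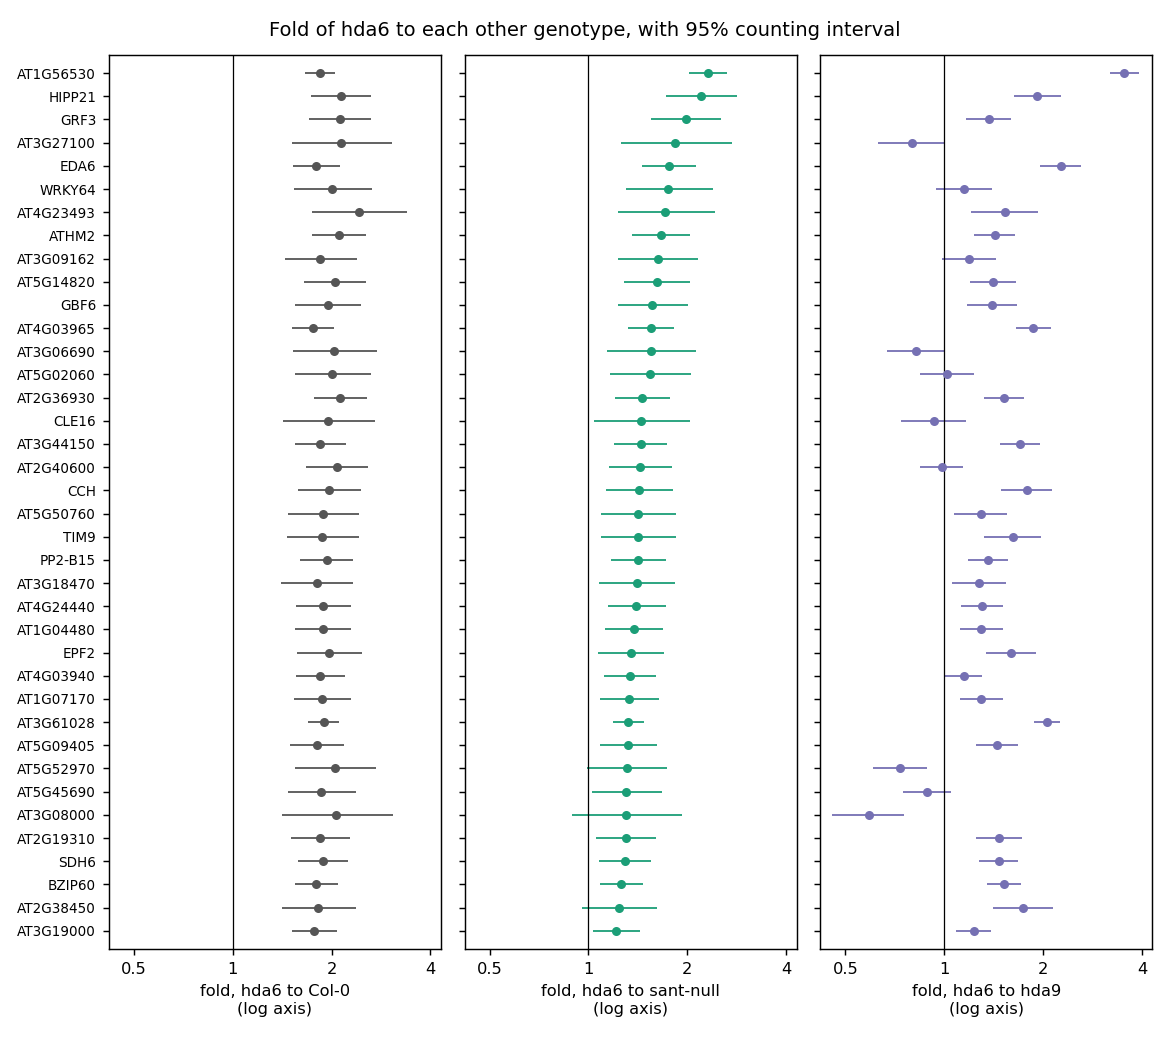
Fold of hda6 to Col-0 (left), to sant-null (middle) and to hda9 (right) of the 38 genes on log axes, with 95% counting intervals as bars and a line at 1, ordered by the fold to sant-null. All intervals to Col-0 lie to the right of 1, 35 of those to sant-null do, and those to hda9 spread from 0.590 to 3.53.

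The hda9 ratios of the 38 genes ran from -0.87 to 1.43 with a median of 0.46, against 0.48 over long genes. Their quartiles were 0.23 and 0.59, against 0.01 and 0.85 over long genes. The highest were at AT3G08000 (2.10 RPKM in Col-0, 7.36 in hda9), AT5G52970 (2.27 and 6.33), AT3G06690 (2.80 and 6.96) and AT3G27100 (1.71 and 4.59). The lowest were at AT1G56530, EDA6 (-0.30), AT3G61028 (-0.11) and AT4G03965 (-0.09). The Col-0 level enters each of these ratios. Among long genes within the Col-0 range of the 38, 33.0% reached 0.75 in hda9 and 48.3% were below 0.5, against 21.1% and 65.8% of the 38. Among all long genes with at least 3 RPKM in hda6, at any Col-0 level, the shares were 25.3% and 57.2%. Neither comparison set carries the sant-null condition of the rule. The 188 genes past the hda6 conditions that it left out had a median hda9 ratio of 0.78. No test of these differences was made, and no trait of the 38 is read from them. The counting interval of the hda9 fold to Col-0 lay above 1 at 28 of the 38 genes (67.6% of long genes) and below 1 at 2 (18.4%).

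**Figure D4:**
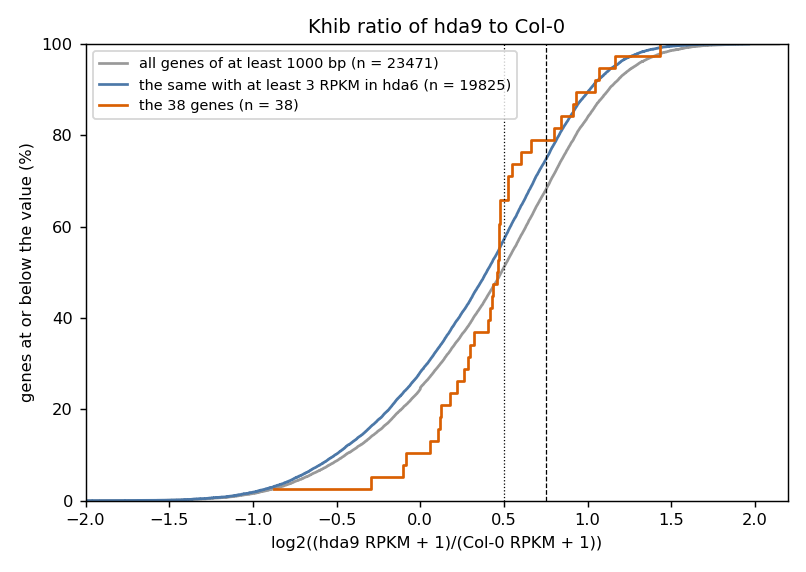
Share of genes (%) at or below each log2 ratio of hda9 to Col-0, for all genes of at least 1000 bp, for those with at least 3 RPKM in hda6 and for the 38 genes, with lines at 0.5 (dotted) and 0.75 (dashed). The curve of the 38 genes crosses the other curves near their middle, with medians of 0.46 and 0.48 for the 38 and for all long genes, and rises more steeply there.

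Relatives of the named genes were set beside them. The families were taken by symbol or synonym after the 38 genes were known, so each holds at least 1 of them by construction. Of 232 relatives of at least 1000 bp in 11 families, 5 had an hda6 ratio of at least 0.75, or 2.16% (0.984% of long genes), and the median of the 232 was 0.21, as over long genes. Those 5 were bZIP6 (3.62 RPKM in Col-0, 7.62 in hda6), GBF4 (11.0 and 21.0), TIM8 (4.31 and 8.65), SDH5 (5.97 and 11.6) and WRKY18, a defence-related factor gene (2.80 and 5.50). Their hda6 ratios ran from 0.77 at WRKY18 to 0.90 at bZIP6. All 5 had at least 3 RPKM in hda6, so that the rule left them out by their sant-null ratios, which were 0.54 for bZIP6, 0.50 for GBF4, 0.79 for TIM8, 0.82 for SDH5 and 0.65 for WRKY18.

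The 40 long relatives of BZIP60 and GBF6 in the bZIP family had a median hda6 ratio of 0.28. Besides BZIP60, the membrane-bound bZIP genes BZIP17 (6.56 RPKM in Col-0, 10.8 in hda6), BZIP28 (8.83 and 14.4) and BZIP49 (6.51 and 11.6) had log2 ratios of 0.64, 0.64 and 0.74 in hda6. BZIP17 and BZIP28 are known activators of the response to endoplasmic reticulum stress and heat. In sant-null these 3 had ratios of 1.01, 0.65 and 0.85, above the 0.47 of BZIP60, and in hda9 0.91, 0.71 and 1.04, against 0.22 at BZIP60. Within the same family, BZIP27 had the lowest ratio, -0.72 in hda6. The 11 relatives of SDH6 had a median of 0.33 and the 10 of TIM9 one of 0.27, where TIM10 had -0.75 from 1.63 RPKM in Col-0 and 0.564 in hda6. Among 13 genes for 14-3-3 proteins, the next after GRF3 was GRF12 at 0.69, and 4 were below 0 (GRF10, GRF11, GRF13 and GF14 PHI). The 5 relatives of HIPP21 ran from -0.32 to 0.60, those of EPF2 from -0.05 to 0.19, and of 9 long CLE genes beside CLE16 none exceeded 0.53.

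**Figure D5:**
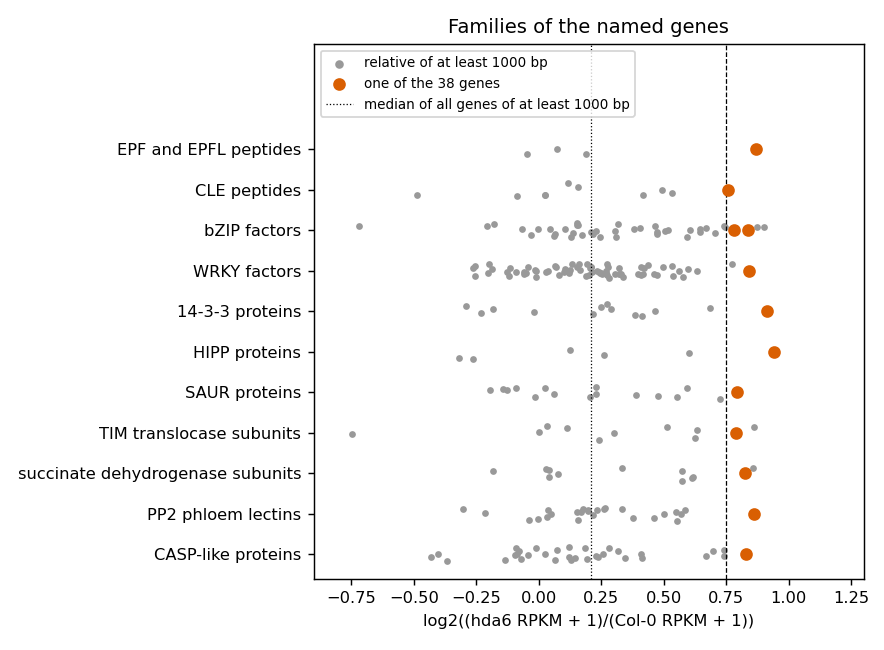
Log2 ratio of hda6 to Col-0 for long genes of the 11 families, 1 point per gene, with the 38 genes in orange, the limit of 0.75 (dashed) and the median of all long genes (dotted). Relatives scatter on both sides of the dotted line, and 5 of the 232 lie past the limit.

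The chloroplast thioredoxin genes, which pass electrons from the photosynthetic chain to enzymes of the stroma, were read as a list of 10. Of these 2 reached a log2 ratio of 0.75 in hda6 (0.984% of long genes), TRXF1 and ATHM2, the latter chosen by the rule. The median of the 10 was 0.34, against 0.21 over long genes. TRXF1 had 13.8 RPKM in hda6, 10.3 in hda9, 11.9 in sant-null and 6.10 in Col-0, so that its sant-null ratio of 0.86 kept it outside the 38. The paralog TRXF2 had 8.84, 5.64, 5.03 and 7.14 RPKM in the same order, and the m-type relatives of ATHM2 had hda6 ratios of 0.58 at TRXM1, 0.40 at TRXM3 and 0.11 at TRXM4. The hda6 ratios of the list ranged widely, from -0.22 at TRXZ to 1.06 at TRXF1.

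Genes named in earlier work on HDA6 were read as a list. Of 12 such genes, 9 were at least 1000 bp long, and 0 were among the 38. The hda6 ratios of the 9 ran from -0.14 to 0.27 with a median of -0.03, against 0.21 over long genes. The floral repressor FLC had 3.56 RPKM in Col-0 and 3.15 in hda6, the homeobox gene KNAT1 3.76 and 3.64, and the clock gene TOC1 8.81 and 10.8. The HDA6 gene itself had 11.8 RPKM in Col-0 and 12.0 in hda6, which does not check the label of an EMS line. By words in the gene names, 5 of 18 classes held 1 of the 38 genes each (thioredoxins, chaperones, transcription factors, auxin genes and peptide signals), 12 held 0 and 1, transposable elements, matched no gene. The words find a part of the genes of a class only and missed EPF2, GBF6, BZIP60 and SDH6. With 0.162% of long genes among the 38, nothing is read from a list or class that held 0.

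Most of the 38 genes were shorter than the median long gene. Their median length was 1395 bp against 2322 bp over long genes, and 21 of them (55.3%) were from 1000 to 1499 bp long, as were 17.5% of long genes. Of the genes of 1000 to 1499 bp, 2.44% met the hda6 conditions, against 1.55% from 1500 to 1999 bp, 0.558% from 2000 to 2999 bp and 0.141% from 3000 bp, although the median hda6 ratio was 0.17, 0.20, 0.22 and 0.21 in the same order. Shorter genes also had fewer reads, with medians of 191, 243, 301 and 435 in hda6. The 38 comprised 37 protein-coding genes (97.4%, against 98.3% of long genes) and 1 long noncoding RNA gene, AT5G09405 (8.46 RPKM in Col-0, 15.3 in hda6). AT5G09405 is overlapped by the gene AT5G65630, and reads of the overlap cannot be assigned to either. They lay on chromosomes 1 (8 genes), 2 (5), 3 (11), 4 (6) and 5 (8), and chromosome 3, with 28.9% of them, holds 19.8% of long genes. Each strand held 19.

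No 2 of the 38 genes were neighbours, from which nothing is read, as the 38 are few among 32548 genes. The closest, AT4G03940 and AT4G03965 on chromosome 4, were 13699 bp apart with 3 genes between them. The nearest gene without overlap on each side of each of the 38, 76 in all, had a median hda6 ratio of 0.23, against 0.19 over all 32548 genes, and 3 of the 76 reached 0.75 (3.57% of all genes). Those 3 were ENODL18 beside SDH6 (3.80 RPKM in Col-0, 7.53 in hda6), AT3G06680 beside AT3G06690 (4.24 and 8.23) and AT3G46565, a gene of 275 bp beside TIM9. At AT1G56530 the flanking genes AT1G56520 (2.86 RPKM in Col-0, 3.58 in hda6, 7.57 in hda9) and AT1G56540 (3.42, 3.43 and 9.86) had hda6 ratios of 0.25 and 0.00 and lay above Col-0 in hda9, where the gene between them lay below it. Of the 38 genes, 9 are overlapped by another gene of the table, so that their reads are partly shared. These are HIPP21, CLE16, SDH6, AT5G02060, AT3G44150, AT1G04480, AT3G08000, AT5G09405 and AT3G19000.

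Islands of Khib that the authors called were set beside the 19 of the 38 genes on chromosomes 3 and 5. Islands of the other chromosomes were not used, because many islands of chromosomes 1, 2 and 4 have the same start and end as an island of another chromosome. By the authors' deposited table for hda6 and Col-0, 7 of the 19 genes were overlapped by an island, and all 7 by one called higher in hda6 at an FDR under 0.05 (12.4% of long genes on these chromosomes), and 1, AT3G19000, also by one called lower (7.92%). Overlap with any island in that table was 36.8% among the 19 and 36.6% among long genes. The authors' deposited tables gave 2 of the 19 an island for sant-null (32.5% of long genes) and 2 for hda9 (30.6%), AT3G19000 and AT3G61028 in both, and none of the 19 had an island called higher there (4.69% and 0.706%). In the authors' deposited tables an island called lower overlapped 1 of the 19 for sant-null (22.0%) and 2 for hda9 (29.4%). The other 12 had no island in any of the 3 tables. These calls use the same hda6, sant-null and Col-0 libraries as the rule, which kept only sant-null ratios below 0.5. With shares over long genes as small as 4.69% and 0.706%, nothing is read from the lack of islands called higher in sant-null or hda9.

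In the authors' deposited table the island of HIPP21 ran from 5756401 to 5756800 on chromosome 5, with a fold of 1.87. It held 204 reads in hda6 and 114 in Col-0 by the authors' deposited counts, which are not on the scale of the recovered reads. Among islands at the 19 genes, the authors' deposited table gave the highest fold, 1.93, at the edge of AT5G14820 (chromosome 5, 4794001 to 4794200, 119 and 64 reads). EDA6 had an island from 8404401 to 8404800 on chromosome 3 with a fold of 1.38 in the authors' deposited table, against 1.80 over the gene. The island inside AT3G09162 had a fold of 1.19 in the authors' deposited table, against 1.85 over the gene. At all 7 genes with an island called higher in hda6, the authors' deposited folds lay below those over the gene. The authors' RPM values and the recovered depths scale hda6 to Col-0 differently, and an island covers another stretch than its gene. Nothing is therefore read from the difference between island and gene folds. AT3G19000 had islands in opposite directions in the authors' deposited table: 1 from 6553201 to 6553800 with a fold of 0.676, called lower, and 1 from 6554001 to 6555200 with a fold of 1.35, called higher. Both islands of AT3G61028 in the hda6 table have the same position as an island of another chromosome.

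The limits of the rule ran through a continuous range of values. Just inside the hda6 limit lay AT3G18470 (hda6 ratio 0.75), AT2G38450 (0.75), AT3G19000 (0.75) and CLE16 (0.76), and just outside lay AT3G46110, AT3G62400, AT1G52330 and AT3G02770, each at 0.75 after rounding. Just inside the sant-null limit were AT3G19000, SDH6, AT3G08000 and AT5G52970 with ratios from 0.48 to 0.49, and just outside were AT3G62280, GBF4, AT3G09575 and AT3G18960 with ratios from 0.50 to 0.51. GBF4, a relative of GBF6, had 21.0 RPKM in hda6, 16.2 in hda9, 16.0 in sant-null and 11.0 in Col-0. The lowest sant-null ratios among the 38 were -0.31 at AT1G56530, -0.03 at HIPP21, 0.03 at EDA6 and 0.08 at GRF3. Among genes without a symbol, AT3G61028 had 15.7 RPKM in hda6, 7.61 in hda9, 11.8 in sant-null and 8.27 in Col-0. AT2G40600 had 7.87 RPKM in hda6, 8.00 in hda9, 5.47 in sant-null and 3.79 in Col-0. AT5G45690 had 8.74 RPKM in hda6, 9.84 in hda9, 6.70 in sant-null and 4.69 in Col-0, and at the latter 2 the interval of the fold of hda6 to hda9 held 1. The genes for which no full set of levels is given had between 1.71 and 8.46 RPKM in Col-0 and between 3.65 and 15.3 in hda6.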

How the data were processed

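Khib ChIP-seq of 4 genotypes was used, with 2 ChIP and 2 input libraries each, 16 samples in 8 groups. The authors deposited 1 RPKM value per gene and genotype, per the file headers. For each mutant against Col-0 the authors deposited islands with the count of reads in both genotypes, per the file headers. The same tables hold RPM values (reads scaled to a library total) that the authors deposited as normalized counts, per the file headers. They also hold the ratio of these values, a fold that the authors deposited for both directions, per the file headers. For each direction of an island the authors deposited a p-value with its FDR, per the file headers. The submitters' processing notes name TAIR10, CASAVA, Bowtie2 2.2.5, SICER 1.0.3 and bedtools, with no role or order. The sources used here do not state how replicates were pooled or whether input was subtracted.

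Tables were joined on the gene ID, and file starts were raised by 1 to the first base of the gene. Reads were recovered from the steps of the RPKM values (all whole within 0.01), for counting intervals only. They are not on the scale of the authors' island counts, for a reason that was not tested. Folds of reads have conditional exact 95% intervals, which cover counting error and not replicate error. With 1 value per genotype no test was made. Names came from a RefSeq table of TAIR10.1, used for names only. The genes and lists were chosen with earlier results of these data known, and the 11 families, matched by symbol or synonym ignoring case, after the 38 genes were known. Genes were named by rule: those with a symbol, those at the limits of the rule, the highest and lowest hda9 ratios, the lowest sant-null ratios, and the members of the lists and name classes; other names were chosen after their values were seen. Promoter sequences were not analysed here. Scripts were tested on simulated data. Python 3.11.15, numpy 2.4.6, pandas 2.3.3, scipy 1.17.1 and matplotlib 3.10.9 were used.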

Additional observations from a re-analysis of the deposited data

Results flagged for a closer look

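At AT1G56530 the hda6 ratio was 0.85 while the hda9 ratio was -0.873 and the sant-null ratio -0.307, with all 3 counting intervals clear of 1. At EDA6 the hda6 ratio was 0.79 and the hda9 ratio -0.296, again with both intervals clear of 1. These were singled out because the mutants lay on opposite sides of Col-0. With 1 value per genotype the difference was not tested, and the mutants share the Col-0 value.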

How the results depend on the processing

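The rule kept 38 genes, 8 with an hda9 ratio of at least 0.75 and 25 below 0.5, with a median of 0.46. With the 4 medians made equal it kept 2 genes, 1 of them among the 38, with 0 and 2 in these hda9 classes and a median of 0.047. After quantile normalization it kept 7, 1 of them shared, with 1 and 6 and a median of 0.27. A pseudocount of 2 kept 18 genes, 11 of them among the 38, with 1 and 13, and one of 0.5 kept 55, 31 of them shared, with 15 at 0.75 or more and a median of 0.52. A length of at least 500 bp kept 77 genes, 52 of them below 0.5, and one of at least 2000 bp kept 4, with 0 and 3. A sant-null limit of 0.25 kept 8, no sant-null condition 226, and an added hda9 limit of 0.5 kept 25. A minimum of 5 RPKM gave 5 genes at 0.75 or more in hda9, as did leaving out genes overlapped by another gene, an alternative chosen after seeing the data. The cause of the differences between scalings was not tested. The other 19 values stayed within 1.5 times or kept their median. No paired analysis was possible because the tables hold 1 pooled value per genotype, and for the same reason no replicate could be left out.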

Other observations

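The same conditions were applied to the 3795 genes from 500 bp to under 1000 bp long, which the rule left out. Of these, 162 met the hda6 conditions (4.27%, against 0.963% of long genes) and 39 also had a sant-null ratio below 0.5 (1.03%, against 0.162%). Of the 39, 34 are protein coding, 4 long noncoding RNA genes and 1 another noncoding RNA gene. The 6 with a symbol were RKD4, RHS13, TET17, DD11, FLA14 and LCR30. RKD4, an RWP-RK factor gene needed in the early embryo, had 1.81 RPKM in Col-0 and 4.56 in hda6, on 33 and 75 reads. RHS13, a root hair specific gene, had 6.13 and 12.5 RPKM. FLA14, a fasciclin-like arabinogalactan protein gene, had 15.0 and 26.4. The hda9 ratio was at least 0.75 at 3 of the 39 (7.69%), against 29.4% of all genes of this length. That share is not matched on the Col-0 or hda6 level or on the sant-null condition, and the ratio shares the Col-0 value that chose the genes. The difference was not tested.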
